A study of Rattus norvegicus with 8 samples.

Results

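With earlier results of these data known, 47 cell cycle genes were listed by symbol for their known roles in DNA replication, mitosis, entry into the cycle or its arrest. Of these, 42 had a probe set, each gene exactly 1, among the 23188 transcript probe sets of the array: 22 act in mitosis, 10 in replication, 6 in G1 and the entry into S phase, and 4 are inhibitors. Top2a, Bub1b, Cenpe, Melk and Mcm5 were not in the probe annotation used here. RNA came from the outer medulla and the cortex of the kidneys of 10-week-old male rats of the Sprague-Dawley strain and was measured on Clariom S arrays, short-oligonucleotide arrays that give 1 value per transcript. Stone formation was induced over 2 weeks with alfacalcidol and ethylene glycol (the EG groups), and control rats had neither. Phlorizin, which blocks renal glucose transport by the SGLT proteins, was given with EG (EG with phlorizin), or alone (phlorizin). Each of the 8 groups, 4 treatments in 2 zones, had 1 array. The labels do not say whether RNA of several rats was pooled, and both zones of a treatment may come from the same rats.

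Cells enter the cycle when D-type cyclins and their kinases release E2F factors from the retinoblastoma proteins. E2F then raises the genes of nucleotide and DNA synthesis. Later the DREAM, MuvB, B-Myb and FoxM1 complexes, acting through CHR elements, control the genes of mitosis, whose promoters often also hold CCAAT elements. In the adult kidney most tubule cells are quiescent, and after injury surviving tubule cells, interstitial cells and immune cells can divide.

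The EG differences of these genes varied with their role. Against control, the median difference of the 22 mitosis genes was 2.10 in outer medulla and 1.07 in cortex on the log2 scale, where 1 is a factor of 2. The 10 replication genes had medians of 1.24 and 0.97, the 6 G1 and S entry genes 0.34 and 0.36, and the 4 inhibitors 0.21 and 0.43. The G1 and S entry medians include E2f1, and the inhibitor medians Cdkn2a, which were under background on all arrays. Over all 23188 probe sets the median was 0.01 in outer medulla and 0.04 in cortex. In the outer medulla 27 of the 42 genes were at least 1 higher with EG than in control, where 6.00% of all probe sets were, and 0 were at least 1 lower, where 6.12% were. In the cortex 20 were at least 1 higher (7.19% of all probe sets) and 1, Ccnd1, was at least 1 lower (7.90% of all). The 19 genes at least 1 higher in both zones (3.04% of all) were 14 mitosis genes and 5 replication genes. One of the 14, Foxm1, is bounded at 0.66 in the cortex, since its control value was under background. With 1 array per group these differences have no replicate error and no p-value, and in whole tissue more dividing cells and more RNA per cell cannot be told apart.

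The promoters of the mitosis and replication genes differ in their sequence elements. RefSeq promoter windows of 250 bases before to 50 after the gene's start (rat build GRCr8) were at hand for 32 of the 42 genes and were searched on both strands for the CHR element TTTGAA, the CCAAT box CCAAT and the E2F sites TTTCCCGC, TTTCGCGC, TTTGCCGC and TTTGGCGC. The CHR element was in 12 of 18 mitosis windows (66.7%) and in 1 of 8 replication windows (12.5%), against 18.1% of all 27457 windows. The CCAAT box was in 15 of 18 mitosis windows (83.3%) and 5 of 8 replication windows (62.5%), against 37.7% of all. An E2F site was in 5 of 8 replication windows (62.5%) and 1 of 18 mitosis windows (5.56%), against 2.25% of all. The start used was the outermost start of the annotated gene for 9 of the 32, and lay 40 to 41951 bases inside the gene for 23, so a window stands for 1 start of its gene.

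Stretches of 150 bases that end just before the gene's outermost start are given for 4 genes, with matches in capitals (ATTGG is a CCAAT box on the other strand), all in GRCr8 and each read 5′ to 3′ on its own strand. Cdk1, at chr20:19265102-19265251 (plus strand), and Cdc20, at chr5:137255800-137255949 (minus strand), show the CHR and CCAAT pair known from mitosis genes. Cdk1 also holds the 1 E2F match among the mitosis windows. Mcm6, at chr13:42404353-42404502 (minus strand), shows the E2F match of a replication gene, where a pair of matches on opposite strands overlap. Rrm1, at chr1:166235754-166235903 (plus strand), is a replication gene whose stretch holds no match, which says only that these letters are not in it. Its searched window holds a CCAAT box further upstream, at -214 from the start.
Cdk1: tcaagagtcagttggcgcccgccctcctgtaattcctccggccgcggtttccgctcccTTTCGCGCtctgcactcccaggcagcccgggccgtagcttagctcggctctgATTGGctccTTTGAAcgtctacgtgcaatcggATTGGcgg
Cdc20: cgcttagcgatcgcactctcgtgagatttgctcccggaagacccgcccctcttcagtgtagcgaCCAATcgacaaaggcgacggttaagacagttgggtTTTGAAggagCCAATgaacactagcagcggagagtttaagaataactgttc
Mcm6: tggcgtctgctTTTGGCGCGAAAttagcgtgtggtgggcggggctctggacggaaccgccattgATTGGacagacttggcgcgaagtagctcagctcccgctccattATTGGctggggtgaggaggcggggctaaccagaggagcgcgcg
Rrm1: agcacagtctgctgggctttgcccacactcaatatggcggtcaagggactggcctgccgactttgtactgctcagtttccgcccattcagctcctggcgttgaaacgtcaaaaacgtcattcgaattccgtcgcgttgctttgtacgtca

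The arrays were alike in overall level: their medians lay between 7.39 and 7.58, and 23 background probe sets averaged 5.53 to 5.68. The 4 poly-A spike-in controls averaged 6.42 on the cortex EG array and 7.67 to 8.23 on the other cortex arrays. In the outer medulla they averaged 7.46 to 7.66. The 4 hybridisation controls were lowest on the EG array of each zone, at 10.65 against 10.80 to 10.92 in the outer medulla and 10.39 against 11.00 to 11.33 in the cortex. The part of these controls in the EG differences was not tested. The summed level of 5 thick ascending limb markers, as log2, was 19.05 to 20.32 in the outer medulla and 15.97 to 18.08 in the cortex. That of 8 proximal tubule markers was 15.93 to 17.02 and 19.63 to 20.35, so the zones match their labels. Of the 42 genes, 30 lay above the background mean of their array everywhere, 10 fell under it on 1 to 3 arrays, and E2f1 and Cdkn2a lay under it on all 8. A difference from a value under background is only a bound and is given as at least that size. The number of arrays limits the precision of every value.

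**Figure D1:**
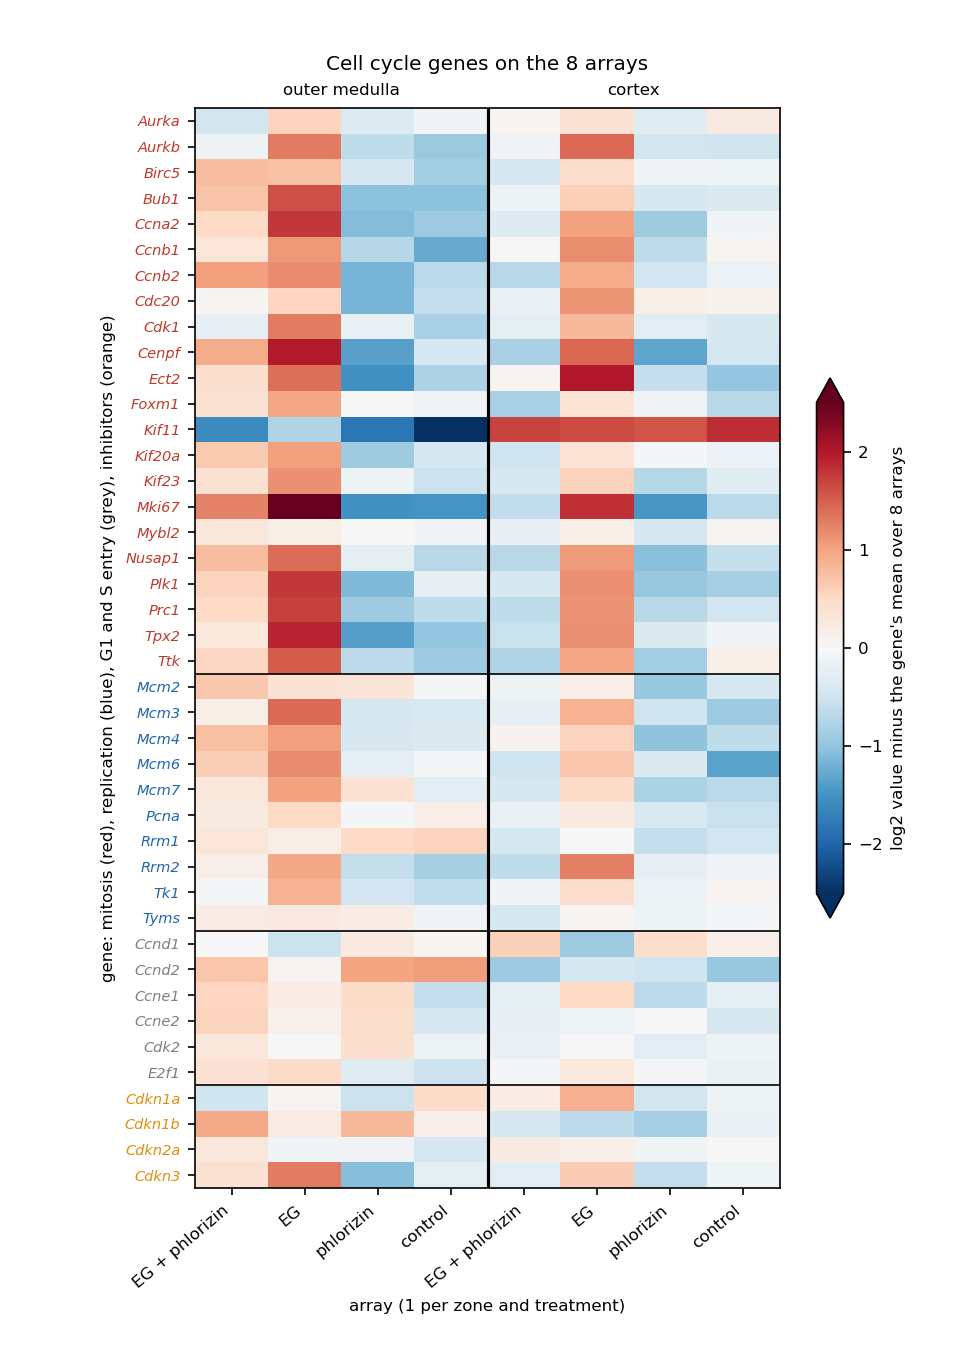
Log2 value of each of the 42 genes minus that gene's mean over the 8 arrays (colour), with genes in rows by role and arrays in columns by zone and treatment. The EG columns are the highest for most mitosis genes in both zones, and EG with phlorizin is next in the outer medulla, while the G1 and S entry genes and the inhibitors share no such column.

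Mki67, which encodes the Ki-67 protein used as a marker of cycling cells, had the largest difference of the 42 genes in the outer medulla. Its log2 value there was 10.37 with EG and phlorizin, 11.83 with EG, 7.60 with phlorizin and 7.62 in control. In the cortex it was 8.50 with EG and phlorizin, 10.95 with EG, 7.66 with phlorizin and 8.45 in control. The EG array was the highest in each zone, by 4.22 over control in outer medulla and 2.50 in cortex, which placed Mki67 at rank 38 and rank 203 of the 23188 probe sets. EG with phlorizin lay 2.77 above phlorizin alone in the outer medulla and 0.84 above it in the cortex.

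Among the cyclins of mitosis, Ccna2, which encodes the cyclin A of S and G2 phase, had 8.97 with EG and phlorizin, 10.23 with EG, 7.39 with phlorizin and 7.55 in control in the outer medulla. Its cortex values were 8.14 with EG and phlorizin, 9.48 with EG, 7.57 with phlorizin and 8.40 in control. The same order of the EG array over the other arrays held in both zones, with EG over control at 2.68 in outer medulla and 1.07 in cortex. Ccnb1 and Ccnb2, the B-type cyclins that drive entry into mitosis, were at least 2.23 and 1.87 higher with EG than in control in the outer medulla, and 1.10 and 1.07 higher in the cortex. Their partner kinase gene Cdk1 was at least 1.97 higher with EG in the outer medulla and 1.21 higher in the cortex. Cdk1 had 6.06 with EG and phlorizin and 6.08 with phlorizin alone in the outer medulla, and 6.03 and 6.00 in the cortex, so its EG difference in the presence of phlorizin was -0.02 and 0.03. That of Ccna2 was 1.59 and 0.57, and that of Ccnb2 was 2.19 and -0.21.

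Kinetochore and checkpoint genes were also highest on the EG arrays. Cenpf, a large kinetochore protein gene, had 7.18 with EG and phlorizin, 8.24 with EG, 4.90 with phlorizin and 5.83 in control in the outer medulla. In the cortex Cenpf had 5.44 with EG and phlorizin, 7.68 with EG, 4.94 with phlorizin and 5.82 in control. Both EG-treated arrays lay above both untreated ones in the outer medulla, while in the cortex EG with phlorizin was under background, as were both phlorizin arrays. Bub1 and Ttk, kinases of the spindle checkpoint, were at least 2.25 and at least 2.33 higher with EG than in control in the outer medulla, and 0.96 and 0.84 higher in the cortex. Cdc20, which activates the anaphase-promoting complex, was 1.12 and 1.02 higher.

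Plk1, a kinase of mitotic entry and spindle assembly, was 1.98 higher with EG than in control in the outer medulla and 1.95 higher in the cortex. Aurkb, the kinase of the chromosomal passenger complex, was 2.22 and 1.90 higher, and Birc5 (survivin), a subunit of that complex, 1.61 and 0.56. Aurka, the kinase of the spindle poles, stood apart, with 6.59 with EG and phlorizin, 7.59 with EG, 6.71 with phlorizin and 6.97 in control in the outer medulla. Its EG difference was 0.62 there and 0.13 in the cortex, while Tpx2, which activates and localises the same kinase, was 2.88 and 1.22 higher.

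Of the genes of the spindle and of cell division, Ect2, an exchange factor that starts the cleavage furrow, had the largest cortex difference of the 42 genes. It had 7.47 with EG and phlorizin, 8.45 with EG, 5.56 with phlorizin and 6.30 in control in the outer medulla, and 7.14, 9.08, 6.50 and 6.10 in the cortex in the same order. Both EG-treated arrays lay above both untreated ones in each zone, and EG exceeded control by 2.15 in the outer medulla and by 2.98 in the cortex. Prc1, which bundles microtubules of the central spindle, was 2.35 and 1.61 higher with EG than in control, and Nusap1, a microtubule-binding protein gene, 2.08 and 1.65. The kinesins Kif20a and Kif23, which act in cytokinesis, were 1.48 and 1.68 higher in the outer medulla and 0.50 and 0.88 higher in the cortex. The kinesin Kif11, which separates the spindle poles, was 1.85 higher with EG in the outer medulla and differed by -0.22 in the cortex. Of the factors that act on mitosis genes, Foxm1 was 1.05 higher in the outer medulla and at least 0.66 higher in the cortex, and Mybl2, which encodes B-Myb, differed by 0.20 and 0.11.

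**Figure D2:**
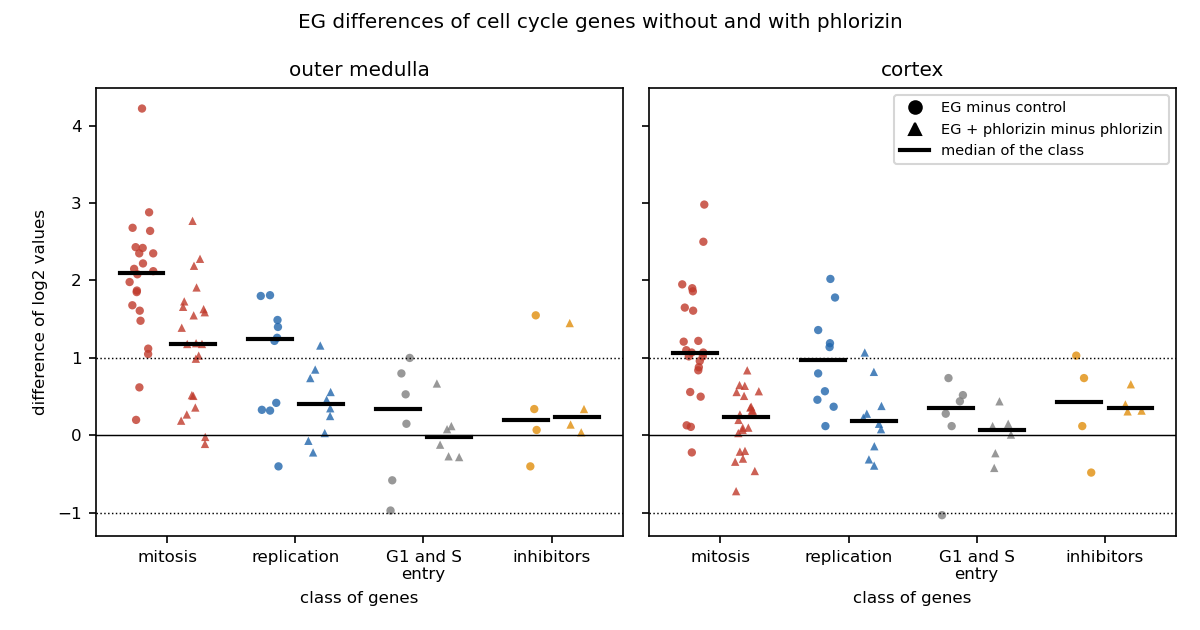
Difference of log2 values (vertical axis) for each gene by role (horizontal axis), in both zones, for EG minus control and for EG with phlorizin minus phlorizin; each point is 1 gene and dotted lines mark 1 and -1. Without phlorizin, 20 of 22 mitosis genes lie above 1 in outer medulla and 14 in cortex; with phlorizin in both groups, 14 do in outer medulla and 0 in cortex.

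The replication genes differed among themselves. The helicase subunit genes Mcm3, Mcm4, Mcm6 and Mcm7, which load onto origins, were 1.80, 1.40, 1.22 and 1.26 higher with EG than in control in the outer medulla. In the cortex they were 1.78, 1.19, at least 1.82 and 1.14 higher. Mcm4 had 9.63 with EG and phlorizin, 9.91 with EG, 8.47 with phlorizin and 8.51 in control in the outer medulla, and 8.96, 9.43, 7.88 and 8.24 in the cortex in the same order. It was the only one of the 42 genes whose EG-treated arrays lay at least 1 above their untreated arrays in both zones with and without phlorizin. Mcm2, another subunit of the same helicase, was 0.42 and 0.57 higher.

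Rrm2, the regulated subunit of ribonucleotide reductase, was 1.81 higher with EG than in control in the outer medulla and 1.36 higher in the cortex. Rrm1, the large subunit of the same enzyme, differed by -0.40 and 0.46. Thymidine kinase gene Tk1 was 1.49 and 0.37 higher, thymidylate synthase gene Tyms 0.33 and 0.12, and Pcna, the sliding clamp of the polymerases, 0.32 and 0.80. Pcna had 12.25 with EG and phlorizin, 12.51 with EG, 12.00 with phlorizin and 12.19 in control in the outer medulla. Pcna, Rrm1 and Tyms differed by less than 1 between every pair of treatments compared in a zone.

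The G1 and S entry genes went their own ways. Ccnd1, which encodes cyclin D1, had 13.26 with EG and phlorizin, 12.75 with EG, 13.53 with phlorizin and 13.33 in control in the outer medulla. In the cortex it had 13.87 with EG and phlorizin, 12.37 with EG, 13.72 with phlorizin and 13.40 in control. The EG array was the lowest in both zones, with a difference from control of -0.58 in outer medulla and -1.03 in cortex. Ccnd2, the gene of cyclin D2, differed between EG and control by -0.97 in outer medulla and 0.52 in cortex. The E-type cyclin genes Ccne1 and Ccne2, partners of Cdk2 at the start of S phase, were 0.80 and 0.53 higher with EG in the outer medulla and 0.74 and 0.28 higher in the cortex. Cdk2 itself differed by 0.15 and 0.12, and the E2F factor gene E2f1 was under background on all arrays.

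Among the inhibitors, Cdkn1a, which encodes p21, had 6.66 with EG and phlorizin, 7.23 with EG, 6.62 with phlorizin and 7.63 in control in the outer medulla. In the cortex it had 7.35 with EG and phlorizin, 8.05 with EG, 6.69 with phlorizin and 7.02 in control. The EG array differed from control by -0.40 in outer medulla and 1.03 in cortex. Cdkn1b, which encodes p27, differed by 0.07 and -0.48. Cdkn3, a phosphatase gene of the cyclin-dependent kinases, had 7.52 with EG and phlorizin, 8.44 with EG, 6.07 with phlorizin and 6.89 in control in the outer medulla, an order of arrays like that of the mitosis genes. Its EG difference was 1.55 in outer medulla and 0.74 in cortex. Cdkn2a, which encodes p16 and p19Arf, was under background on all arrays, and its transcripts cannot be told apart here.

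**Figure D3:**
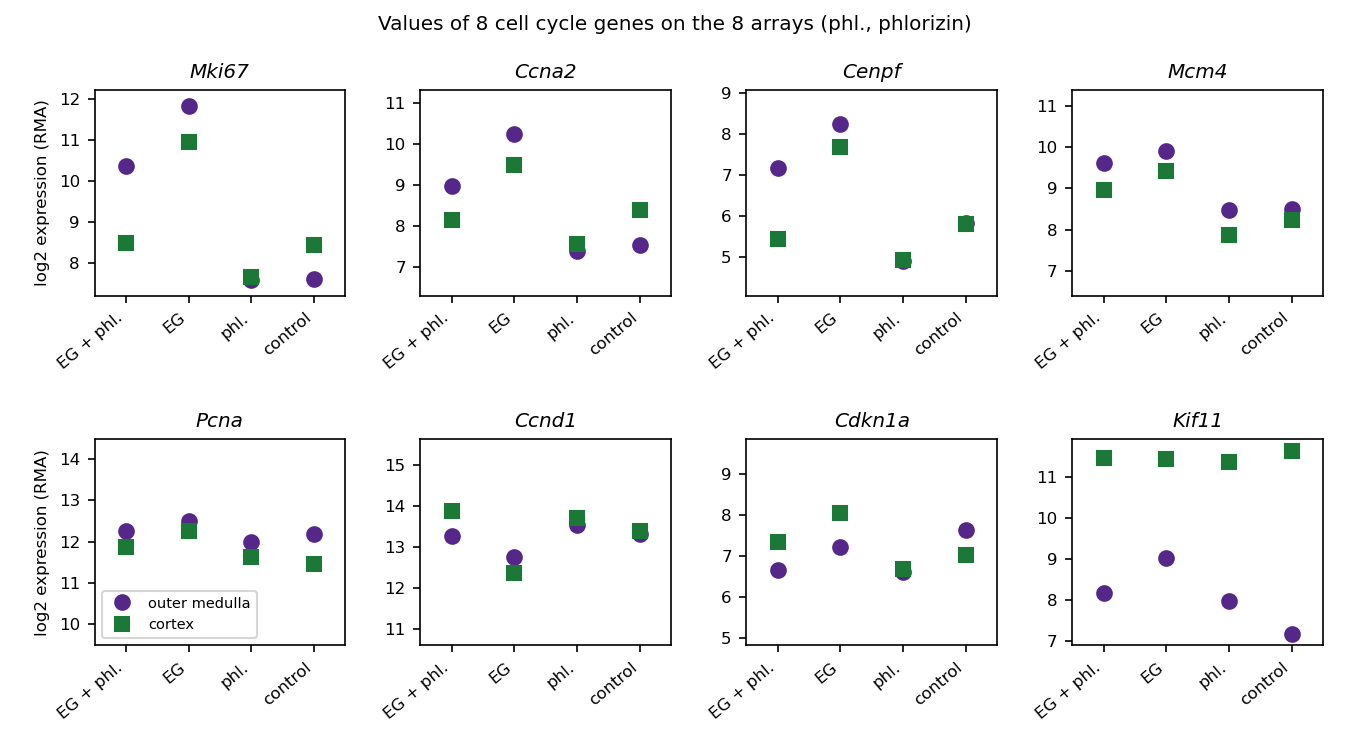
Log2 expression (vertical axis) of 8 genes on the 8 arrays, with treatments on the horizontal axis, circles for the outer medulla and squares for the cortex; each point is 1 array. The EG array is the highest in both zones for Mki67, Ccna2, Cenpf and Mcm4, and the lowest for Ccnd1, while Cdkn1a has its highest value in control in the outer medulla and with EG in the cortex.

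When phlorizin was present in both groups, the median EG differences of the mitosis and replication genes were smaller in each zone, and in the cortex they were close to 0. In the outer medulla 16 of the 42 genes were at least 1 higher with EG and phlorizin than with phlorizin (2.67% of all probe sets), of which 14 act in mitosis, and the mitosis median was 1.19. One of the 14, Cdc20, is only bounded at 0.73, since its phlorizin value was under background. The other 2 were Mcm4 (1.16) and Cdkn3 (1.45). In the cortex 1 gene, Mcm4, was at least 1 higher (1.69% of all), as it was in both zones together (0.574% of all), and the mitosis median was 0.24. The replication medians were 0.40 and 0.19 in the same zones, and those of the G1 and S entry genes -0.02 and 0.06. Among the mitosis genes, Ccnb2 was 2.19 higher in the outer medulla, Ect2 at least 1.84, Plk1 1.66, Tpx2 1.63, Ccna2 1.59 and Cenpf at least 1.55. Whether the EG differences with and without phlorizin differ could not be tested within a zone. In the cortex the mitosis genes ranged up to the 0.84 of Mki67.

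Set against EG alone, EG with phlorizin gave lower mitosis levels in both zones. In the outer medulla 9 genes were at least 1 lower (3.10% of all probe sets) and 0 at least 1 higher (2.38% of all). In the cortex 18 were at least 1 lower (4.57% of all), and Ccnd1 was 1.49 higher (4.38% of all). One of the 18, Foxm1, is bounded at -0.79, since its value with EG and phlorizin was under background. The mitosis medians were -0.94 in outer medulla and -1.30 in cortex, against replication medians of -0.43 and -0.51. The 9 genes at least 1 lower in both zones (1.05% of all) were Mki67, Cdk1, Ccna2, Aurkb, Plk1, Cenpf, Tpx2, Prc1 and Mcm3. Tpx2 had the largest outer medulla difference, with 8.82 with EG and phlorizin against 10.47 with EG, and 8.01 against 9.71 in the cortex. Ccnb2 and Birc5 were alike on the outer medulla arrays, with differences of -0.15 and 0.03, against -1.62 and -0.88 in the cortex. This comparison shares its EG array in each zone with the comparison of EG with control, so a high value of that array raises one and lowers the other.

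With phlorizin alone, most mitosis and replication genes were close to control. The mitosis medians of phlorizin minus control were -0.01 in outer medulla and -0.28 in cortex, and the replication medians 0.05 and -0.12. In the outer medulla 1 gene was at least 1 higher, Ccne1 at 1.05 (0.733% of all probe sets), and 1 at least 1 lower, Cdkn1a at -1.02 (0.319% of all). In the cortex no gene was at least 1 higher (0.914% of all) or lower (0.746% of all). Among the mitosis genes above background on both cortex arrays, Ccna2 had the largest difference at -0.84. The phlorizin values of Ttk and Cenpf were under background there, which bounds their differences at -0.98 and -0.24.

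To test EG and phlorizin, each treatment was taken as 1 profile, the mean of its outer medulla and cortex arrays. Both factors were fitted with limma on 4 profiles over 13279 probe sets, with no replicate of any profile. With 1 residual degree of freedom, the spread is the part of the EG difference that depends on phlorizin. The p-values therefore do not measure a spread between animals or replicate arrays. Of the 42 genes, 36 passed the filter on low values, and a gene could pass through an EG array alone, so counts over them are a description. By limma 0 of the 36 passed an adjusted p of 0.05 for EG, and 5 of all probe sets did (0.0377%). At an unadjusted p under 0.05 there were 22, all higher with EG, where 22.7% of all probe sets differed in either direction. Mki67 was 2.58 higher (SE 0.38) and Cenpf 1.77 (SE 0.26), both with a limma adjusted p of 0.0769. Cenpf was under background on 3 arrays, and with those values raised to the background mean it was 1.45 higher (limma adjusted p = 0.101). Ect2 at 1.92 (SE 0.34) and Mcm4 at 1.21 (SE 0.21) had a limma adjusted p of 0.0808, and Cdkn3 at 1.02 (SE 0.21) one of 0.0885. These calls depend on the setting. With median-centred arrays 13 genes passed by limma, all higher with EG, where 3.63% of all probe sets were called higher. With no filter 10 did (1.73% of all), and with the 8 arrays in a random block of treatment 13 (6.3% of all). With the outer medulla arrays alone 12 did (1.81% of all). With quantile normalization, a background floor, an intensity trend, a robust prior or the cortex arrays alone 0 did.

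For phlorizin by the same limma fit, 0 of the 36 genes passed, with a lowest adjusted p of 0.994, and 0 of all probe sets did. At an unadjusted p under 0.05 there were 11, all lower with phlorizin (3.56% of all probe sets in either direction). They were 9 mitosis genes, such as Mki67 at -1.18 (SE 0.38) and Ccna2 at -0.90 (SE 0.26), and the inhibitors Cdkn3 at -0.78 (SE 0.21) and Cdkn1a at -0.66 (SE 0.21).

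Between the zones, 6 of the 10 replication genes were higher in the outer medulla, and of the mitosis genes 1 was called. With treatment as a block over the 8 arrays, limma called 8 of the 36 tested genes higher in the outer medulla than in the cortex (32.5% of all probe sets) and 1 lower (18.8% of all). The share of genes called was thus under that of all probe sets. The median of the 13279 probe sets tested was itself 0.17 higher in the outer medulla, and that of all 23188 was 0.02 higher. The 8 were the cyclin D2 gene Ccnd2, the p27 gene Cdkn1b, and the replication genes Mcm2, Mcm4, Mcm6, Mcm7, Rrm1 and Pcna. Ccnd2 had 10.41 with EG and phlorizin, 9.79 with EG, 10.70 with phlorizin and 10.76 in control in the outer medulla, and 8.80, 9.29, 9.22 and 8.77 in the cortex in the same order. All outer medulla arrays lay above all cortex arrays, by 1.40 on average (SE 0.25, limma adjusted p = 0.00412). Cdkn1b was 1.04 higher (SE 0.24, limma adjusted p = 0.0104), Mcm7 0.69 (SE 0.17, limma adjusted p = 0.0139) and Rrm1 0.76 (SE 0.19, limma adjusted p = 0.0159).

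Kif11 was the 1 gene called lower in the outer medulla, and its array values were far apart between the zones. It had 8.18 with EG and phlorizin, 9.03 with EG, 7.98 with phlorizin and 7.18 in control in the outer medulla, against 11.46, 11.42, 11.36 and 11.63 in the cortex. The limma difference was -3.38 (SE 0.31, adjusted p = 0.000282). No other mitosis gene was called by limma between the zones. With the EG-with-phlorizin pair of arrays left out, limma called 1 gene higher, Ccnd2 (21.7% of all probe sets), and 1 lower, Kif11 (13.7% of all). Without the phlorizin pair it called 4 higher (21.7% of all) and 1 lower (13.5% of all), against 8 and 1 with all pairs. Mcm2 and Pcna were not called by limma after median centring or quantile normalization of the arrays, Mcm4 not after quantile normalization, and Pcna not without the filter.

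Whether the EG difference itself varied with the zone was tested with limma on the outer medulla minus cortex difference of each treatment. This fit too had 1 residual degree of freedom and no replicate of any treatment. At an adjusted p of 0.05 limma called 0 of the 36 genes, and the lowest adjusted p was 0.198. At an unadjusted p under 0.05 there were 13 (12.4% of all probe sets), 12 with the larger EG difference in the outer medulla. The EG difference of Mki67 was larger there by 1.82 (SE 0.27) and that of Tpx2 by 1.74 (SE 0.27), both with a limma adjusted p of 0.198. The EG difference of Ccna2 was larger there by 1.32 (SE 0.30, limma adjusted p = 0.27). Cdkn1a was the 1 gene with the larger EG difference in the cortex, at -1.03 (SE 0.32, limma adjusted p = 0.354). With a prior variance that follows the intensity, limma called Mki67 alone of these genes, at an adjusted p of 0.0423. Of all probe sets 0.241% were then called higher.

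**Figure D4:**
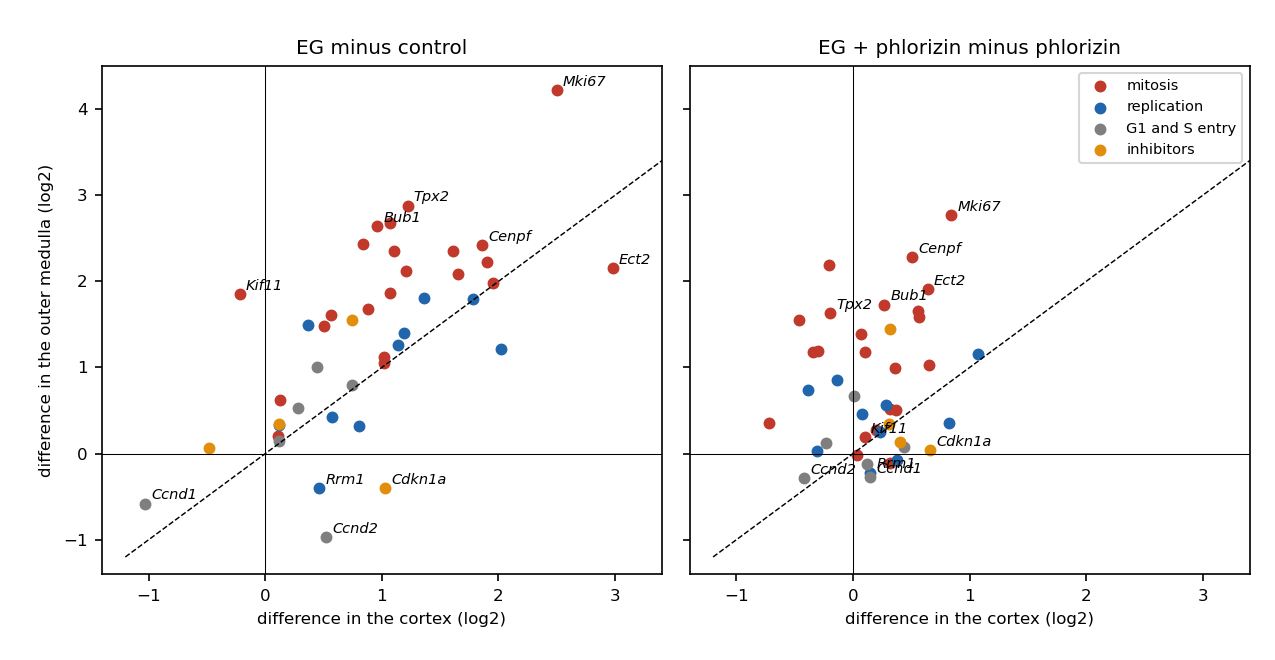
EG difference of each gene in the cortex (horizontal axis, log2) against the outer medulla (vertical axis, log2), coloured by role, without phlorizin (left) and with phlorizin in both groups (right); each point is 1 gene. Mki67 lies highest in both panels (4.22 and 2.77 in the outer medulla), and most mitosis genes lie above the diagonal.

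Other genes of the same pathways, from lists that do not overlap with the 42, were counted in the same way. For 34 measured mitosis genes outside the list, the medians of EG minus control were 1.27 in outer medulla and 0.90 in cortex. At least 1 higher were 23 in outer medulla (6.00% of all probe sets) and 14 in cortex (7.19% of all). They included the kinetochore genes Ndc80, Nuf2 and Knl1, and Sgo2, a protector of centromere cohesion. Ndc80 had 8.88 with EG and phlorizin, 9.41 with EG, 6.81 with phlorizin and 6.78 in control in the outer medulla, and 7.36, 8.87, 6.93 and 7.40 in the cortex in the same order. In the presence of phlorizin in both groups 16 of the 34 were at least 1 higher with EG in the outer medulla (2.67% of all). In the cortex 0 were (1.69% of all). The medians of the 34 were 0.87 and 0.06. Some of the 23 and of the 16 in outer medulla start from a value under background, so their differences are only bounds. For some of the 16 the bound is under 1. Of 25 further replication genes 0 were at least 1 higher with EG than in control in outer medulla (6.00% of all). In cortex 2 were, and this share of 8.0% was near the 7.19% of all probe sets. The medians were 0.48 and 0.37.

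Of 19 genes of arrest and p53 targets, 1 (5.26%) was at least 1 higher with EG than in control in outer medulla, against 6.00% of all probe sets. In cortex 2 (10.5%) were, against 7.19% of all. These shares were near those of all probe sets, and the medians were 0.34 and -0.03. Gadd45g, a stress gene of growth arrest, had 8.20 with EG and phlorizin, 9.08 with EG, 8.10 with phlorizin and 8.37 in control in the outer medulla, and 8.48, 7.46, 8.23 and 9.54 in the cortex in the same order. The zones went opposite ways between EG and control. Plk2, a kinase gene induced by p53, had 10.07, 9.49, 10.56 and 9.15 in the outer medulla and 7.99, 8.29, 7.26 and 6.44 in the cortex in that order. Of 12 further G1 regulators 3 in outer medulla (6.00% of all) and 5 in cortex (7.19% of all) were at least 1 higher with EG. Myc, whose protein drives growth and G1 entry, had 10.79 with EG and phlorizin, 11.02 with EG, 8.65 with phlorizin and 8.01 in control in the outer medulla. In the cortex Myc had 10.07 with EG and phlorizin, 11.24 with EG, 8.44 with phlorizin and 7.84 in control. All EG-treated arrays lay above all untreated arrays for Myc, unlike for the cyclin D1 gene.

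Markers of other cell types moved with the same treatments. Of all probe sets, 6.00% in outer medulla and 7.19% in cortex were at least 1 higher with EG than in control. At least 1 lower were 6.12% and 7.90%. All 13 macrophage markers were measured, and 12 were at least 1 higher with EG than in control in outer medulla and 13 in cortex, with medians of 1.73 and 2.35. Their summed level, as log2, was 16.62 with EG and phlorizin, 17.55 with EG, 15.93 with phlorizin and 15.85 in control in the outer medulla. In the cortex it was 15.75 with EG and phlorizin, 17.13 with EG, 14.72 with phlorizin and 14.74 in control. Of 9 fibroblast markers 7 and 8 were at least 1 higher (summed level 16.95 to 18.96 over the outer medulla arrays and 15.23 to 18.10 over the cortex arrays), and of 10 markers of injured tubules 7 and 7 (18.17 to 19.98 and 15.52 to 19.43). Of 6 endothelial markers 0 were at least 1 higher in either zone and 3 were at least 1 lower in each, with medians of -1.01 and -0.96 and summed levels of 14.93 to 15.77 and 13.73 to 14.61. Of 5 lymphocyte markers 0 in outer medulla and 1 in cortex were at least 1 higher, and 0 were at least 1 lower in either zone. The 1, Cd3e, had a cortex control value under background (4.93), so its difference is only a bound. Some of these markers, such as Cd3g, were under background on all arrays. The summed levels were 8.39 to 8.67 and 8.33 to 8.98. Most markers of the normal tubule were lower with EG than in control. Of 8 proximal tubule markers, however, 3 were higher in outer medulla, 1 of them by at least 1, and 1 was higher in cortex. Of 5 thick ascending limb markers 4 and 5 were at least 1 lower (medians -1.31 and -1.54). Of 8 proximal tubule markers 4 and 2 were (medians -0.90 and -0.73), and of 4 collecting duct markers 1 and 2 (medians -0.69 and -1.01). The proximal tubule marker Slc22a8 was under background with EG in outer medulla (4.82), so its difference there is only a bound, and under 1 in size. The macrophage, fibroblast and injured tubule sums were largest on the EG array of each zone, as was the summed level of the mitosis genes, while the EG difference of the macrophage markers was larger in the cortex and that of the mitosis genes in the outer medulla. The part of these cell types in the cell cycle values was not tested.

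The 14 genes with a CHR element, of which Mcm2 and Cdkn3 are no mitosis genes, had a median EG difference of 2.03 in outer medulla and 1.14 in cortex, against 0.71 and 0.48 for the 18 without. With phlorizin in both groups the medians were 1.29 and 0.32 with the element, against 0.22 and 0.25 without. The 23 with a CCAAT box had medians of 1.80 and 1.07 for EG minus control, against 0.42 and 0.37 for the 9 without, and with phlorizin in both groups 1.03 and 0.23, against 0.27 and 0.31. The 6 with an E2F site had medians of 1.24 and 1.17 for EG minus control, against 1.58 and 0.82 for the 26 without, and with phlorizin in both groups 0.19 and 0.16, against 1.01 and 0.29. Since 12 of the 14 CHR genes act in mitosis, the element and the role cannot be told apart here, and a match is a description of the sequence only.

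**Figure D5:**
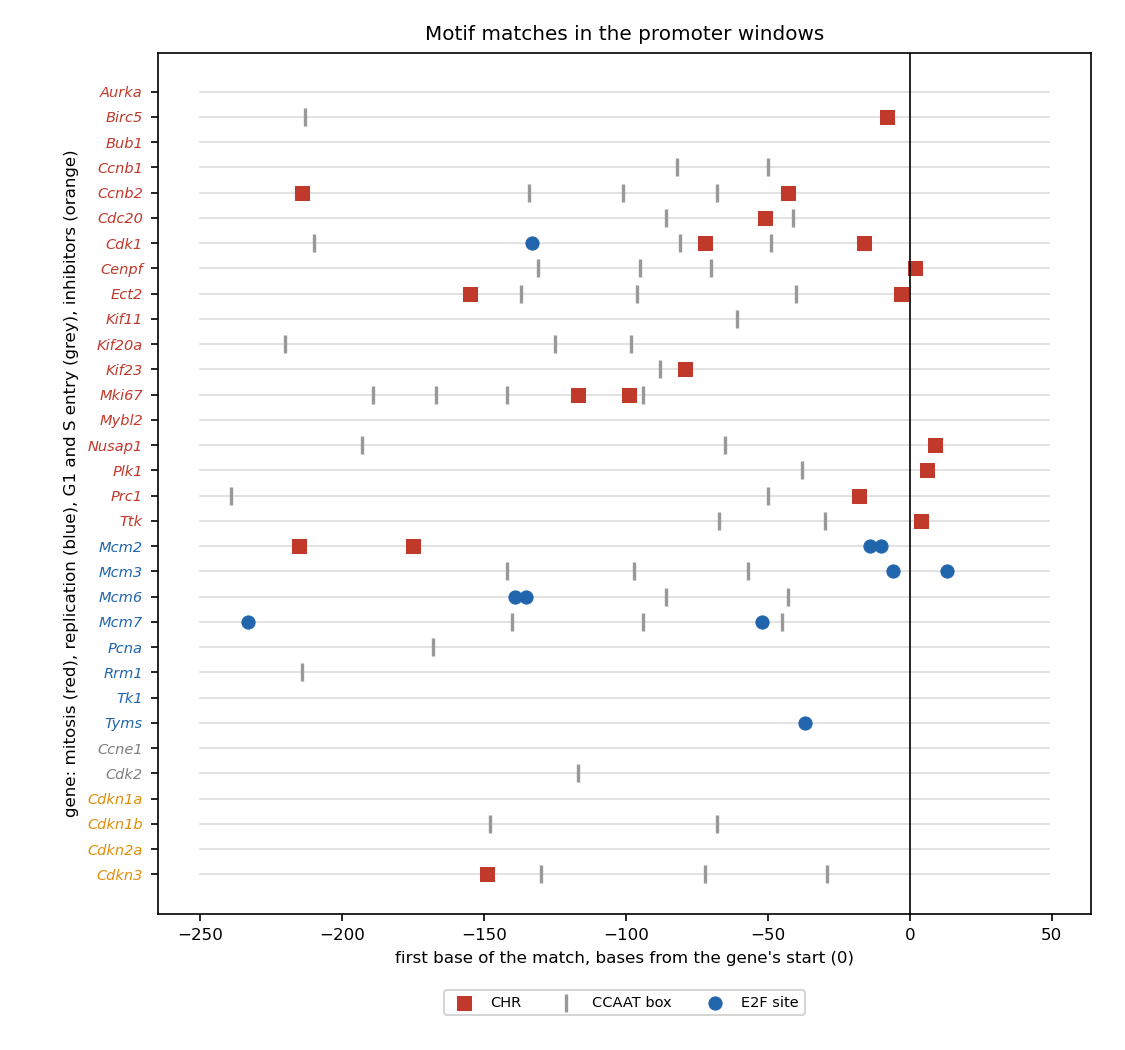
Position of each CHR, CCAAT box and E2F match (horizontal axis, bases from the gene's start at 0) in the promoter windows of the 32 genes (vertical axis, coloured by role); each mark is 1 match. CHR marks are in 12 of 18 mitosis windows and E2F marks in 5 of 8 replication windows.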

How the data were processed

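RNA of 8 kidney samples, 1 for each zone and treatment, was measured on Clariom S rat arrays. The deposited values are log2 expression values that the authors made with RMA, per the submitters' processing notes. No source used here names the RMA version, and base 2 was inferred because transcript values run from 2.4 to 19.7. The table has 24834 probe sets; after 1646 that are controls or of other kinds were dropped, 23188 were used as deposited.

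The genes and all lists were chosen with earlier results of these data known. All measured genes of the cell cycle list could be named, and of each wider list at most 4, those with the largest mean absolute EG difference over the zones. Differences within a zone rest on 1 array per group and are counted from a log2 size of 1. Tests used limma 3.58.1 in R 4.3.3, fitted over the 13279 probe sets whose highest value reached the median of all values (7.48), with 2-sided p-values and Benjamini-Hochberg adjustment over all of them at 0.05. EG and phlorizin were tested on 4 profiles averaged over zones, zones on 8 arrays with treatment as a block, and the difference of the EG effect between zones on 4 zone differences. Each fit was tested on simulated data. Promoter windows came from RefSeq (GRCr8) and were searched with Python 3.11.15. The alternatives were median centring, quantile normalization, a background floor, no filter, an intensity trend, a robust prior, a random block, other sizes and leaving out each treatment's pair of arrays. After the data were seen, the arrays of each zone alone were added.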

Additional observations from a re-analysis of the deposited data

Results flagged for a closer look

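A few genes had differences of opposite sign in the outer medulla and the cortex, both with and without the other agent. The EG differences of Rrm1 were -0.40 without and -0.22 with phlorizin in the outer medulla, against 0.46 and 0.15 in the cortex. The mean difference between the zones was -0.61 (limma adjusted p = 0.476). Phlorizin differences opposed each other in the same way for 4 genes. The outer medulla minus cortex difference of the phlorizin effect was 1.25 for Ccne1, from 1.05 without and 0.33 with EG in the outer medulla and -0.41 and -0.71 in the cortex. It was 0.78 for Mcm2, from 0.38 and 0.31 in the outer medulla and -0.55 and -0.31 in the cortex. It was 0.56 for Cdk2 and 0.54 for Mybl2, whose values lie near background. Each rests on 1 array per group. The share of all probe sets with such opposed signs was not counted, so these genes are a description only. The differences of the phlorizin effect between zones were not tested.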

How the results depend on the processing

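The 16 medians of the mitosis and replication genes moved by at most 0.15 with median centring, quantile normalization or a background floor. All kept their sign except the mitosis median of phlorizin minus control in the outer medulla, -0.01, which was 0.01 with median centring and with the floor. Of the counts by size, that of genes higher with EG than in control in the cortex was 20, against 15 with median centring, 17 with quantile normalization and 19 with the floor. In the outer medulla it was 25 to 27 under the same settings. The cortex count of genes lower with EG and phlorizin than with EG was 18, against 16, 16 and 17. The counts also moved with the size asked for. At a size of 2, 12 genes were higher with EG than in control in outer medulla (362 of all 23188 probe sets) and 3 in cortex (348). Those higher with EG and phlorizin than with phlorizin were 3 (76 of all) and 0 (33 of all). At a size of 0.5 in the cortex they were 9 (2046 of all). Those lower with EG and phlorizin than with EG were 0 and 2 at a size of 2, and 24 and 28 at 0.5. The shares of all probe sets lower by these sizes were not counted. By limma the count of genes called for EG was 0, against 13 with median-centred arrays, 10 with no filter, 13 with the 8 arrays and treatment as a random block, and 12 with the outer medulla arrays alone. Over all probe sets 5 were called higher and 0 lower, against 482 and 375 with median-centred arrays and 0 with quantile normalization. With no filter 401 and 232 were called, with the random block 837 and 878, and with the outer medulla arrays alone 241 and 124. The count for the difference of the EG effect between zones was 0, against 1, Mki67, with an intensity trend. Between zones 9 genes were called, and 2 to 9 with 1 pair of arrays left out. With a pair left out, 21.7% to 35.1% of all probe sets tested were called higher and 13.5% to 21.4% lower. The cause of these shifts was not tested. No paired analysis was possible because each group has 1 array and no second replicate number, so no block of replicates exists, while the comparisons of zones pair the zones of each treatment. The mean over several probe sets of a gene was not run, since 0 genes have several. Dim genes are limited by the background of 5.53 to 5.68.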
